A study of Mus musculus with 18 samples.

Results

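The account below concerns the miRNA content of 6 of the 18 small RNA libraries of the series, namely the 3 input libraries of NIH/3T3 cells at day 3 of Pus1 knockdown (KD3 input A, B and C) and the 3 input libraries of wild-type (WT) NIH/3T3 cells (WT input A, B and C). They were taken by their labels, and no measured value entered the choice. NIH/3T3 is an established line of mouse embryo fibroblasts. The other 12 libraries are 3 inputs at day 6 of knockdown (KD6) and 9 libraries made after immunoprecipitation with a pseudouridine antibody (IP), 3 for each of WT, KD3 and KD6. An input library holds the small RNA before immunoprecipitation, so its counts report how abundant each miRNA was and not how much pseudouridine it carried. The title of the supplementary table names the knockdown agent as siRNA against PUS1, and the WT labels name no control siRNA, so loss of PUS1 and exposure to an siRNA cannot be told apart here. Levels of the Pus1 transcript were not measured in these libraries, so the efficiency of the knockdown is unknown here. The labels give each library a replicate letter and do not say whether letters stand for separate cultures, so the p-values measure the spread between these libraries, which may be technical.

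PUS1 is a pseudouridine synthase, an enzyme that turns uridine into pseudouridine in tRNAs and other RNAs. A miRNA is cut from a hairpin precursor, and either arm of the hairpin (5p or 3p) can be loaded into an Argonaute protein. Bases 2 to 8 of the loaded strand form the seed that pairs with target mRNAs, so miRNAs that share a seed are grouped as a family, and hairpins that lie close together on a chromosome are often cut from a shared primary transcript.

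The mature sequences of the miRNAs on which the comparison turned are given here from RefSeq (GRCm38.p6), 5′ to 3′, with the seed in capitals. The first set is drawn from the miR-379/miR-410 cluster of chromosome 12, whose tested members were mostly above WT at day 3. Each of these 6 has a seed of its own.
miR-379-5p: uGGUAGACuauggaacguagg
miR-411-5p: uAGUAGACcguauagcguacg
miR-329-5p: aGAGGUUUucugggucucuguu
miR-543-3p: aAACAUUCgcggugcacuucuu
miR-381-3p: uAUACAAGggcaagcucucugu
miR-382-3p: uCAUUCACggacaacacuuuuu
The second set holds 7 miRNAs of 3 seed families that were each lower than WT at day 3. Of the tested members of these families, 3 of 6 with the first seed and 2 of 4 with the second were lower. miR-17-5p, miR-20a-5p and miR-93-5p share the seed AAAGUGC, miR-25-3p and miR-92a-3p share AUUGCAC, and miR-221-3p and miR-222-3p share GCUACAU.
miR-17-5p: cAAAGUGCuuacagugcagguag
miR-20a-5p: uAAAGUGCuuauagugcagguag
miR-93-5p: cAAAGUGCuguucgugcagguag
miR-25-3p: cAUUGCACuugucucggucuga
miR-92a-3p: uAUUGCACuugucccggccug
miR-221-3p: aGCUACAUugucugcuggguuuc
miR-222-3p: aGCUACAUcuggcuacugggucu
The third set holds 3 pairs in which 2 miRNAs with the same seed differed from WT in opposite directions, the first of each pair being higher at day 3 and the second lower. The pairs were picked by these values. The differences of miR-99a-5p, miR-181d-5p, miR-322-5p and miR-15b-5p depended on the processing or on single libraries, as given below.
miR-99a-5p: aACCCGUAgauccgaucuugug
miR-99b-5p: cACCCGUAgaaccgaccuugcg
miR-181a-5p: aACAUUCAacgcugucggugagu
miR-181d-5p: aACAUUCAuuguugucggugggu
miR-322-5p: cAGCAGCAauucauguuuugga
miR-15b-5p: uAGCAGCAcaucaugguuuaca

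The 6 libraries held between 8622901 and 15099781 mapped reads. Of 1907 mature miRNAs in the table, 1135 had a read in at least 1 of the 6 libraries and 530 were abundant enough to be tested. Levels are given as counts per 1000000 reads in tested miRNAs (CPM), scaled between libraries by the trimmed mean of M values (TMM), and changes as log2 ratios of KD3 input over WT input. Reads that mapped outside miRNAs were 9.66% ± 0.28 (SD, n = 3) of the mapped total in KD3 inputs and 5.60% ± 0.22 (SD, n = 3) in WT inputs. The groups did not overlap, and the two-sided exact permutation p was 0.1, the smallest that 3 libraries against 3 allow. By distinct sequences instead of reads, the share outside miRNAs was 0.70 percentage points lower in KD3 (exact permutation p = 0.6). The part of this shift in the ratios below was not tested, except that the results with the mapped total as library size are given beside them. Fibroblast-associated miRNAs (a list of 10, led by miR-21a-5p) summed to between 485224 and 518093 CPM in WT and between 562558 and 599952 CPM in KD3, and 2 of them, miR-143-3p and miR-145a-5p, were higher in the test below. Over all tested miRNAs 8.87% were higher in that test. All 10 were above 100 CPM, and the share was larger at such levels. Of the 154 miRNAs of at least 100 CPM that were also tested in the IP libraries, 33 were higher. The median log2 ratio of this list was 0.15 and turned to -0.02 with the mapped total. Under upper-quartile factors, with library size alone and with the mapped total, 1 of the 10, miR-143-3p, was higher. With the mapped total 1 other member was lower. Blood, endothelial, epithelial, pluripotent and islet lists each summed to at most 3.24 CPM in all 6 libraries, with miR-142a-3p and miR-142a-5p, which mark blood cells, at 0. The neural list summed to between 3499 and 3822 CPM in WT and between 3591 and 3802 CPM in KD3, nearly all of it miR-9-5p, and the muscle and liver lists to at most 124 and 35.7 CPM.

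The comparison of KD3 with WT inputs asks which miRNAs differed in abundance 3 days into the knockdown. At an adjusted p under 0.05, 77 of the 530 tested miRNAs differed (14.5%). Of these, 47 were higher in KD3 (8.87%) and 30 were lower (5.66%). In all 77 the 3 KD3 libraries lay on one side of the 3 WT libraries, which was the case for 173 of all 530 (32.6%). The differences were small, with a median of 0.50 on the log2 scale without regard to sign, and 7 of the 77 were beyond 2-fold. The replicate letter as a block gave 85 miRNAs (16%), of which 73 were among the 77. The direction of the calls depended on scaling, as 61.0% of them were higher under TMM and 60.0% under relative log expression factors, against 39.4% of 71 under upper-quartile factors, 36.4% of 88 with library size alone and 21.4% of 117 with the mapped total as library size. These last 3 moved the median over all 530 miRNAs from -0.02 to -0.11, -0.13 and -0.19. A single model of all 18 libraries, in which IP and day 6 libraries share in the estimate of the spread, gave 0 calls by edgeR and 46 at an unadjusted p under 0.05, against 147 for the 6 libraries alone (DESeq2 on the 6 libraries gave 75 calls).

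**Figure D1:**
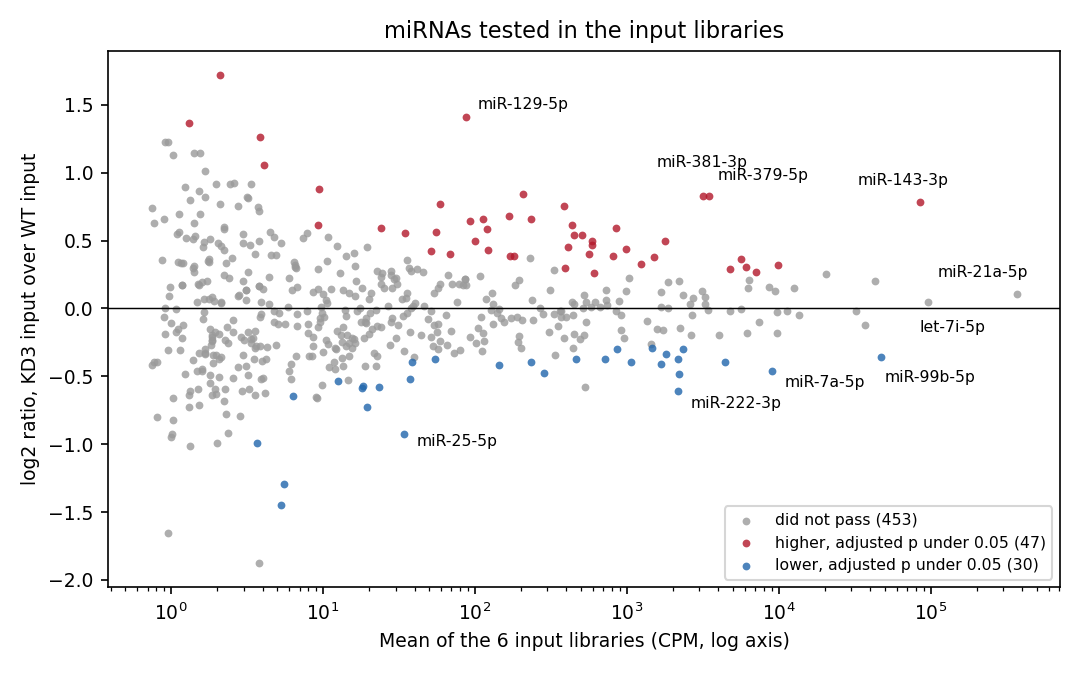
Each point is 1 of the 530 tested miRNAs, with its mean level over the 6 input libraries (CPM, log axis) against its log2 ratio of KD3 input over WT input. The 47 higher miRNAs (red) and 30 lower miRNAs (blue) reach from a few CPM up to miR-143-3p and miR-99b-5p, while miR-21a-5p and let-7i-5p, the 2 others of the 3 most abundant miRNAs with miR-143-3p, lie near 0.

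Of the 3 most abundant miRNAs, 1 passed the test. miR-21a-5p, a fibroblast miRNA that gave the most reads of any miRNA, was at 354004, 338160.0 and 367608 CPM in WT A, B and C and at 398607, 372058 and 369428 CPM in KD3 A, B and C (log2 ratio 0.11 ± 0.06 (SE), adjusted p = 0.294). let-7i-5p was at 102492, 95062 and 84403 CPM in WT and 103204, 95234 and 92310.4 CPM in KD3 (log2 ratio 0.04 ± 0.08 (SE), adjusted p = 0.734). Neither passed the test, the let-7i-5p groups overlapped, and both ratios turned negative with library size alone and with the mapped total. The third in level, miR-143-3p, known for its high level in smooth muscle and other mesenchymal cells, was at 64790.3, 59842 and 62979.5 CPM in WT and 104181, 96316 and 122274 CPM in KD3. Every KD3 library was far above every WT library (log2 ratio 0.78 ± 0.09 (SE), adjusted p = 1.92e-04). The other products of the miR-143/145a locus were chosen after their values were seen. They rose as well, with log2 ratios of 0.57 for miR-143-5p, 0.33 for miR-145a-5p and 0.39 for miR-145a-3p (adjusted p = 0.00335, 0.0369 and 0.0292). The call of miR-145a-5p was lost under upper-quartile factors, with library size alone and with the mapped total, and without KD3 A, KD3 B, WT B or WT C.

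The largest group among the higher miRNAs came from the imprinted Dlk1-Dio3 region of chromosome 12. The miR-379/miR-410 cluster, whose hairpins are expressed from the maternal chromosome, spans chr12:109709060-109747960 (GRCm38, plus strand) with 38 hairpins, partly within the noncoding RNA Mirg. Of its 55 tested miRNAs 20 were higher and 0 lower in KD3, where 8.87% of all tested miRNAs were higher, so that 36.4% of the cluster was called and it gave 42.6% of the 47 higher calls. Of the 55, 50 had a log2 ratio above 0, and the median was 0.50 against -0.02 over all tested miRNAs. The summed level of the cluster was 10134, 9461 and 9981 CPM in WT A, B and C and 15683, 14761 and 15918 CPM in KD3, with no overlap. No member was lower under any scaling, and the number higher was 20 under relative log expression factors, 16 under upper-quartile factors and with library size alone, and 13 with the mapped total. Leaving out 1 library at a time left between 16 and 18. It was 0 in the model of all 18 libraries, where the median was 0.36.

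miR-379-5p, from the first hairpin of the cluster, was at 2636, 2377 and 2513 CPM in WT and 4405, 4014 and 4921 CPM in KD3 (log2 ratio 0.83 ± 0.08 (SE), adjusted p = 1.32e-04). miR-381-3p was at 2285, 2082 and 2436 CPM in WT and 4175, 3787 and 4112 CPM in KD3 (log2 ratio 0.83 ± 0.08 (SE), adjusted p = 8.86e-05). miR-329-5p, the member with the largest change above 100 CPM, was at 163, 132 and 151 CPM in WT and 306, 238 and 255 CPM in KD3 (log2 ratio 0.84 ± 0.12 (SE), adjusted p = 8.37e-04). In each of these 3 the KD3 libraries were clear of the WT libraries, and the gap was wider than the spread within either group. miR-411-5p was at 649.9, 643 and 729.9 CPM in WT and 1023, 1011 and 1011 CPM in KD3 (log2 ratio 0.59 ± 0.08 (SE), adjusted p = 7.92e-04). miR-382-3p was at 181, 183 and 179 CPM in WT and 284, 276 and 296 CPM in KD3 (log2 ratio 0.66 ± 0.08 (SE), adjusted p = 5.36e-04). The replicates of these 2 lay close together and the groups were well separated. miR-543-3p was less regular, at 87.0, 149 and 147 CPM in WT and 159, 221 and 235 CPM in KD3, both A libraries being low (log2 ratio 0.68 ± 0.20 (SE), adjusted p = 0.0392). Its call was lost with DESeq2 (adjusted p = 0.083), with library size alone (0.0968), with the mapped total (0.113) and when KD3 B, KD3 C or WT A was left out (between 0.0707 and 0.12).

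Members of the cluster differed in how far they moved. Of its 14 tested members at 100 CPM or more, 13 were higher. Of the 154 miRNAs at that level that were also tested in the IP libraries, 33 were higher. The exception in the cluster, miR-409-3p, was at 521, 549.9 and 519 CPM in WT and 568, 556 and 520.4 CPM in KD3 (log2 ratio 0.05 ± 0.08 (SE), adjusted p = 0.710). The opposite arm of the same hairpin, miR-409-5p, was at 113, 92.5 and 83.5 CPM in WT and 153, 144 and 135 CPM in KD3 (log2 ratio 0.59 ± 0.12 (SE), adjusted p = 0.00642). Both were singled out after their values were seen, and the ratio of the 2 arms did not pass its own test (adjusted p = 0.109). Of the 41 members under 100 CPM, 7 passed the test and 36 had a ratio above 0. Over all tested miRNAs 14 under 100 CPM were higher, and 251 of 530 at any level had a ratio above 0. By arm, 21 of 24 tested 5p strands had a ratio above 0 (median 0.57) and 13 were higher, while 29 of 31 tested 3p strands had a ratio above 0 (median 0.41) and 7 were higher. Over all tested miRNAs 12.1% of 5p and 6.6% of 3p strands were higher. Other members that rose were miR-134-5p, which is known from neuronal dendrites (log2 ratio 0.49), miR-300-3p (0.54), miR-299a-3p (0.54), miR-541-5p (0.38), miR-495-3p (0.65) and miR-382-5p (0.43). The neighbouring miRNA cluster of the same region, chr12:109563692-109595388, which starts within Meg3 and holds miR-127, miR-136 and miR-434 among others, had 227 reads over all 6 libraries for its 26 mature miRNAs, of which 17 had none. Its only tested member, miR-127-3p, was at 2.09, 1.76 and 1.49 CPM in WT and 2.63, 3.46 and 4.15 CPM in KD3 and did not pass the test (log2 ratio 0.92 ± 0.30 (SE), adjusted p = 0.0670).

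**Figure D2:**
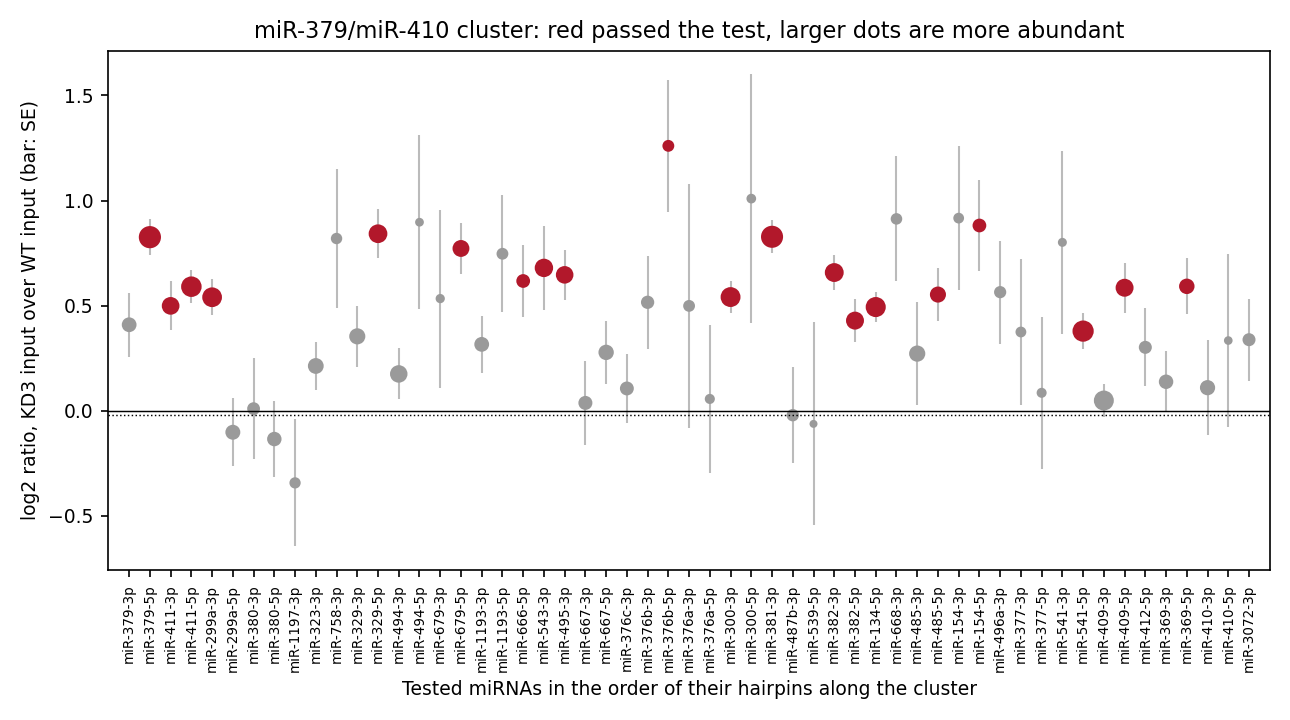
The 55 tested miRNAs of the miR-379/miR-410 cluster stand in the order of their hairpins, with the log2 ratio of KD3 input over WT input as the height, its SE as the bar, and the dot larger for more abundant miRNAs. The 20 that passed the test (red) lie all along the cluster and all above 0, with miR-409-3p near 0 among its neighbours, and the dotted line marks the median of all tested miRNAs.

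The miR-17/92 cluster and its paralogs, known for promoting proliferation and as targets of MYC and E2F, lay below WT. Of the 12 listed members 11 were tested, 6 were lower and 0 higher, with a median log2 ratio of -0.39, while 5.66% of all tested miRNAs were lower. The median was below 0 under every scaling, from -0.38 to -0.57. miR-25-3p was at 2659, 2637 and 2455 CPM in WT and 1790.2, 1894 and 1858 CPM in KD3 (log2 ratio -0.48 ± 0.07 (SE), adjusted p = 8.37e-04). miR-92a-3p was at 5126, 5188 and 4785 CPM in WT and 3456, 3913 and 4119.6 CPM in KD3 (log2 ratio -0.39 ± 0.08 (SE), adjusted p = 0.00566). miR-20a-5p was at 1236, 1219 and 1156 CPM in WT and 935, 908.2 and 906 CPM in KD3 (log2 ratio -0.39 ± 0.07 (SE), adjusted p = 0.00335). In all 3 every KD3 library was below every WT library, and no replicate crossed the gap. miR-93-5p was at 823, 799 and 791 CPM in WT and 632, 622 and 607 CPM in KD3 (log2 ratio -0.37 ± 0.07 (SE), adjusted p = 0.00415). miR-17-5p was at 343, 338 and 318 CPM in WT and 251, 247 and 220.1 CPM in KD3 (log2 ratio -0.48 ± 0.09 (SE), adjusted p = 0.00335). miR-18a-5p fell by 0.52 on the log2 scale. The members of the miR-19 seed, which carry much of the growth-promoting activity ascribed to the cluster, did not pass the test, miR-19b-3p being at 106, 114 and 114 CPM in WT and 104, 104 and 112 CPM in KD3.

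The same miRNAs can be read by locus. The miR-25/93/106b cluster lies within Mcm7 (chr5:138165321-138165818, minus strand), which encodes a subunit of the replicative helicase. All 6 of its tested strands had ratios below 0, with a median of -0.43, and 3 were lower. miR-25-5p, its passenger strand, was at 45.3, 49.8 and 38.8 CPM in WT and 24.3, 24.7 and 21.4 CPM in KD3 (log2 ratio -0.92 ± 0.13 (SE), adjusted p = 8.37e-04), the largest decrease among strands of this cluster. The Mir17hg cluster (chr14:115043671-115044506, plus strand) had 8 tested strands that come from no other locus, of which 7 were below 0 and 3 were lower. Its summed level was 1675, 1657 and 1606 CPM in WT and 1273, 1249 and 1215 CPM in KD3, and that of the Mcm7 cluster was 4255, 4182 and 3950.4 CPM in WT and 3026, 3123 and 3131 CPM in KD3. The groups did not overlap in either sum. Over all tested miRNAs 5.66% were lower, and 279 of 530 had a ratio below 0.

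miR-222-3p and miR-221-3p, which repress the cell cycle inhibitor p27 and lie side by side on the X chromosome, were both lower. miR-222-3p was at 2492, 2921 and 2457 CPM in WT and 1475, 1761 and 1917 CPM in KD3 (log2 ratio -0.61 ± 0.10 (SE), adjusted p = 0.00293), the largest decrease above 100 CPM. miR-221-3p was at 2431, 2538 and 2372 CPM in WT and 1821, 1953 and 1900.2 CPM in KD3 (log2 ratio -0.37 ± 0.07 (SE), adjusted p = 0.00335). KD3 and WT libraries did not overlap in either. The 2 passenger strands had ratios of -0.23 (miR-221-5p) and -0.30 (miR-222-5p) and did not pass the test (adjusted p = 0.111 and 0.129). Their groups did not overlap either, which was the case for 32.6% of all tested miRNAs. The ratios of all 4 were below 0 under every scaling, and both passenger strands passed with library size alone and with the mapped total (adjusted p between 0.00798 and 0.0392).

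miR-7a-5p, an inhibitor of growth factor signalling that is processed from an intron of Hnrnpk and from another locus, was at 10899, 9961 and 10281 CPM in WT and 7758, 7549 and 7364 CPM in KD3 (log2 ratio -0.46 ± 0.06 (SE), adjusted p = 8.37e-04). The gap between the groups was wider than the spread within either. miR-7b-5p, which has the same seed and was chosen after its values were seen, fell by 0.58 on the log2 scale from a level between 21.3 and 23.1 CPM in WT (adjusted p = 0.00805). miR-125b-1-3p was at 1936, 2009 and 1810.2 CPM in WT and 1353, 1470.2 and 1500.0 CPM in KD3 (log2 ratio -0.41 ± 0.08 (SE), adjusted p = 0.00335). miR-532-5p, from the miRNA cluster of a Clcn5 intron, was at 2559.5, 2677 and 2535 CPM in WT and 1944, 2144 and 2231 CPM in KD3 (log2 ratio -0.30 ± 0.07 (SE), adjusted p = 0.0190). In both the KD3 libraries lay below the WT libraries, for miR-532-5p by a narrower gap, and its call was lost without KD3 A, KD3 B or WT B (adjusted p between 0.0655 and 0.113). Of the 8 tested strands of the Clcn5 cluster 3 were lower, the other 2 being miR-532-3p and miR-362-5p, where 5.66% of all tested miRNAs were lower. This count was 0 without WT B and 1 without KD3 A or KD3 B.

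**Figure D3:**
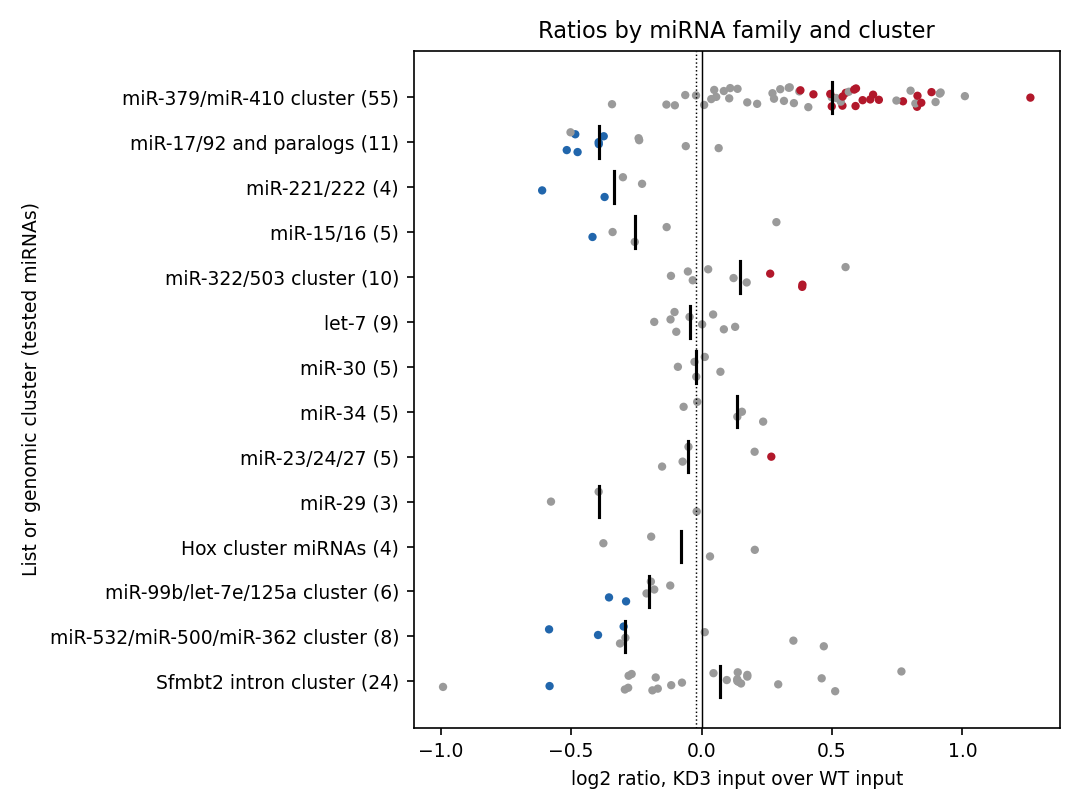
Each row is a list or genomic cluster, each dot 1 tested miRNA at its log2 ratio of KD3 input over WT input, and the black bar the median of the row. Red and blue dots passed the test as higher and lower, the dotted line is the median of all 530 miRNAs, and the miR-379/miR-410 row lies to the right while the miR-17/92 and miR-221/miR-222 rows lie to the left.

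Several miRNAs with the same seed went in opposite directions. miR-99b-5p and miR-99a-5p share the seed ACCCGUA, known for repressing the kinase mTOR. miR-99b-5p, from the Spaca6 locus on chromosome 17, was at 54883, 53119 and 50122 CPM in WT and 39718, 43151 and 40795 CPM in KD3 (log2 ratio -0.35 ± 0.06 (SE), adjusted p = 0.00335). miR-99a-5p, from an intron of Mir99ahg on chromosome 16, was at 4797, 4963 and 4991 CPM in WT and 6296, 6569.7 and 6154 CPM in KD3 (log2 ratio 0.37 ± 0.06 (SE), adjusted p = 0.00329). The first was lower and the second higher in all 3 KD3 libraries, while the third member, miR-100-5p, was at 33871, 32288 and 31424 CPM in WT and 31789.6, 32335 and 31999 CPM in KD3. The call of miR-99a-5p was lost with upper-quartile factors (log2 ratio 0.27, adjusted p = 0.0651) and with the mapped total (0.19, adjusted p = 0.0651). All 6 tested strands of the miR-99b/let-7e/miR-125a cluster had ratios below 0. Of these, miR-99b-5p and miR-99b-3p were lower, where 5.66% of all tested miRNAs were lower. The number lower was 1 with no filter and without KD3 B or KD3 C, 3 with library size alone and 5 with the mapped total. let-7e-5p, of the same cluster, was at 6377, 6923 and 6389 CPM in WT and 5619, 5739 and 6007 CPM in KD3 and did not pass the test (log2 ratio -0.18 ± 0.07 (SE), adjusted p = 0.0987), although it did with library size alone (adjusted p = 0.0225) and with the mapped total (0.00612).

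Of the 4 tested members of the miR-181 family, known for a role in the maturation of lymphocytes, 1 was higher and 1 lower. The other 2 did not pass, and 3 of the 4 ratios were above 0. miR-181a-5p was at 295, 310.3 and 425 CPM in WT and 516, 497 and 564 CPM in KD3 (log2 ratio 0.61 ± 0.13 (SE), adjusted p = 0.00748). miR-181d-5p was at 239, 262 and 299 CPM in WT and 189.9, 201.2 and 218 CPM in KD3 (log2 ratio -0.40 ± 0.10 (SE), adjusted p = 0.0236). WT C was the highest WT library in both, and still fell short of every KD3 library for miR-181a-5p. The call of miR-181d-5p was lost when any of 4 single libraries was left out (KD3 A, KD3 B, WT B or WT C, adjusted p between 0.0746 and 0.0969). In the miR-15/16 seed family, whose members restrain the cell cycle, miR-15b-5p was at 169, 160.1 and 162 CPM in WT and 128, 120.1 and 119 CPM in KD3 (log2 ratio -0.42 ± 0.09 (SE), adjusted p = 0.00750). miR-322-5p, the mouse counterpart of human miR-424 and a product of the miR-322/miR-503 cluster of the X chromosome, was at 145, 136 and 159.8 CPM in WT and 225, 179.8 and 171 CPM in KD3. Its log2 ratio was 0.39 ± 0.12 (SE), adjusted p = 0.0498, and this call was lost under each other scaling (adjusted p between 0.0514 and 0.214) and without KD3 A, KD3 B, WT A or WT B (between 0.0676 and 0.196). That of miR-15b-5p was lost without KD3 B (adjusted p = 0.0567). miR-16-5p, also of this seed, was at 321, 386 and 418 CPM in WT and 285, 280.5 and 323 CPM in KD3, with 1 KD3 library inside the WT range (log2 ratio -0.34 ± 0.11 (SE), adjusted p = 0.0562, and adjusted p = 0.0195 with the replicate letter as a block). Of the 10 tested members of the miR-322/miR-503 list 3 were higher and 0 lower, where 8.87% of all tested miRNAs were higher. The median was 0.15 and turned to -0.02 with the mapped total, under which 1 member was lower. The number higher was 0 under upper-quartile factors, with library size alone and with the mapped total, and also without KD3 input A or without WT input B.

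Outside these groups, the larger increases above 100 CPM were those of miR-1981-5p and miR-152-5p. miR-1981-5p was at 279, 305 and 272 CPM in WT and 529, 503.4 and 409 CPM in KD3 (log2 ratio 0.75 ± 0.10 (SE), adjusted p = 8.37e-04). miR-152-5p was at 89.1, 80.0 and 92.9 CPM in WT and 144, 128 and 141 CPM in KD3 (log2 ratio 0.66 ± 0.10 (SE), adjusted p = 0.00137). Both were separated between the groups, with KD3 C the lowest KD3 library for miR-1981-5p. Among the most abundant of the higher miRNAs, miR-26a-5p was at 8775, 8775 and 8598 CPM in WT and 11009, 10836 and 10856 CPM in KD3 (log2 ratio 0.32 ± 0.06 (SE), adjusted p = 0.00335). miR-26a-5p is encoded in introns of genes for phosphatases of RNA polymerase II. miR-218-5p, from introns of the Slit genes, was at 5213, 5028 and 6146 CPM in WT and 6793, 6597 and 6814 CPM in KD3 (log2 ratio 0.30 ± 0.08 (SE), adjusted p = 0.0282). miR-24-3p was at 6147, 6172 and 6829.8 CPM in WT and 7684, 7807 and 7555 CPM in KD3 (log2 ratio 0.27 ± 0.07 (SE), adjusted p = 0.0204). The groups did not overlap in these 3. Their calls were lost under upper-quartile factors (adjusted p between 0.109 and 0.232) and with the mapped total (between 0.0955 and 0.352), and those of miR-218-5p and miR-24-3p also when 1 library was left out (KD3 A, KD3 B, WT A or WT B, adjusted p between 0.0543 and 0.132, and for miR-218-5p without KD3 C, adjusted p = 0.0597). The smallest adjusted p of the comparison belonged to miR-129-5p, which is made in quantity by neurons and lay just under the 100 CPM used for naming. It was at 49.8, 46.6 and 46.0 CPM in WT and 129.9, 118 and 129 CPM in KD3 (log2 ratio 1.41 ± 0.10 (SE), adjusted p = 7.13e-06), and miR-129-2-3p, from 1 of its 2 hairpins, rose as well from a low level (log2 ratio 1.06). Both were chosen after their values were seen, as were the other 5 miRNAs beyond 2-fold, each at a few CPM (miR-1298-5p, miR-6901-3p and miR-376b-5p higher, miR-32-3p and miR-877-3p lower).

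**Figure D4:**
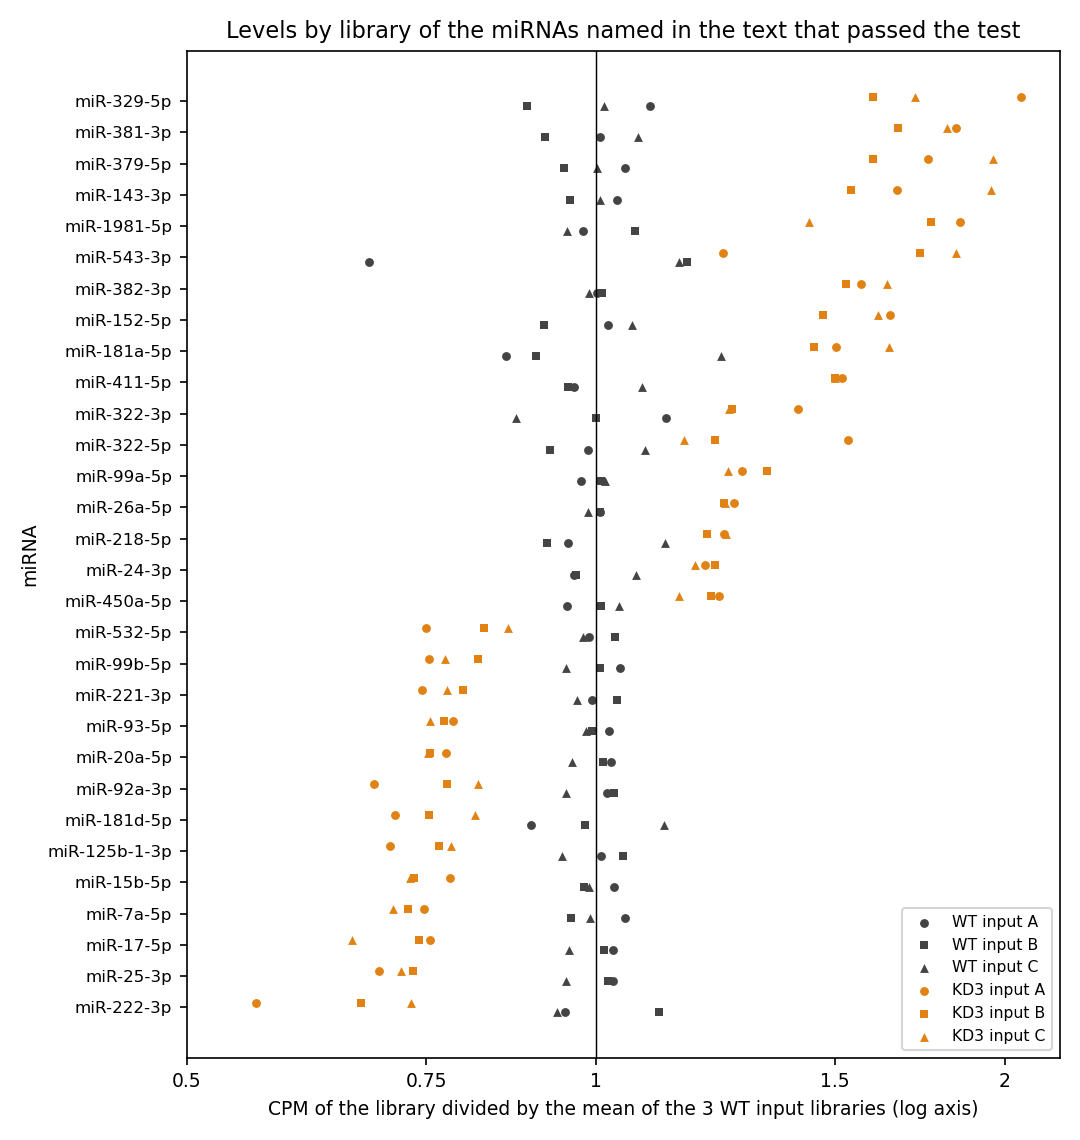
Each row is a miRNA that passed the test and was named by rule, and each symbol 1 library, placed at its CPM divided by the mean of the 3 WT input libraries (log axis, circles for letter A, squares for B, triangles for C). KD3 libraries (orange) lie to 1 side of the WT libraries (grey) in every row, with the narrowest gap for miR-543-3p, miR-322-5p and miR-218-5p.

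Other families that are often followed in growth arrest or in fibroblasts gave few or no calls. Over all tested miRNAs 14.5% passed, so 0 calls among 3 to 5 members is near that share. Of 9 tested let-7 family members 0 passed the test by edgeR, with ratios between -0.18 and 0.13 and 0 calls with the block (1 was under an unadjusted p of 0.05, let-7e-5p). With the mapped total 3 of the 9 were lower and the median moved from -0.05 to -0.22, with library size alone 1 was lower, and without KD3 C 1 was higher. None of the 5 miR-30 members, the 5 strands of the p53-responsive miR-34 family, the 3 matrix-regulating miR-29 members or the 4 miRNAs of the Hox clusters passed. Their ratios lay between -0.09 and 0.07 for miR-30, between -0.07 and 0.24 for miR-34, between -0.58 and -0.02 for miR-29 and between -0.38 and 0.20 for the Hox clusters. Of the 5 listed guide strands of the miR-23/24/27 family miR-24-3p was higher and the other 4 did not pass. Among passenger strands of these hairpins, named after their values were seen, miR-24-2-5p was higher (log2 ratio 0.44, adjusted p = 0.00830), and miR-27a-5p (-0.37, 0.0180) and miR-27b-5p (-0.99, 0.0388) were lower. miR-27b-5p averaged 3.66 CPM, and its call was lost with the replicate block and without KD3 A, KD3 C or WT A. The call of miR-27a-5p was lost without KD3 B, KD3 C or WT A, and that of miR-24-2-5p with the mapped total. The study itself had picked 4 miRNAs on libraries of this series, as pseudouridylated miRNAs that the knockdown strongly affected. That choice rests on IP, a different measure from input level, and the 4 are no independent evidence of a direction. In the inputs miR-20a-5p was lower, and miR-16-5p, miR-342-3p and miR-30c-1-3p had ratios of -0.34, -0.21 and -0.30 without passing.

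Both arms of a hairpin passed the test for 8 hairpins (miR-143, miR-145a, miR-25, miR-322, miR-382, miR-411, miR-532 and miR-99b), and in all 8 the arms had the same direction. These 8 were picked because both arms passed, and the share with the same direction over all tested hairpins was not counted. Arms could also differ in sign, as miR-27a-5p was lower (log2 ratio -0.37) and miR-27a-3p, which did not pass, was at 0.20 (adjusted p = 0.0896). A test of the 3p over 5p ratio, which does not depend on how libraries are scaled, gave 0 of 138 hairpins at an adjusted p under 0.05 by edgeR (0%). At an unadjusted p under 0.05 there were 24, the smallest adjusted p was 0.0834, and with the replicate letter as a block 1 hairpin, miR-210, passed (adjusted p = 0.0293). Its log2 ratio of 3p over 5p reads averaged 6.55 in KD3 and 5.44 in WT. The 42 higher miRNAs with a RefSeq sequence had a median of 47.6% G and C, the 27 lower ones 52.2% and the 386 that did not pass 50.0%, and the median share of U was 27.3% in each. Across 455 miRNAs the log2 ratio had a Pearson r of -0.034 with G and C content, -0.014 with U content and -0.006 with length. These describe miRNAs of the same 6 libraries, which are no independent replicates.

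KD3 was also compared with WT in the 3 KD3 and 3 WT IP libraries, which are other libraries than the inputs. IP counts depend on the abundance of a miRNA and on its capture by the pseudouridine antibody. Their ratio is therefore a different measure from that of the inputs, and the 2 parts were not separated. Whether an input and an IP library of the same letter came from the same RNA is not given in the sources used here. Reads outside miRNAs were between 27.9% and 38.2% of the mapped total in KD3 IP and between 14.8% and 18.6% in WT IP, and their part in the result was not tested. In the IP libraries 18 of 391 tested miRNAs passed (4.60%), 9 higher and 9 lower. The split was 9 and 6 under relative log expression factors, 4 and 12 under upper-quartile factors and 1 and 39 with the mapped total, which moved the median over all miRNAs tested there from -0.04 to -0.35. That count fell to 4 without WT IP A, 5 without WT IP B and 5 without WT IP C. Of the 47 miRNAs higher in the inputs, 43 were tested in the IP libraries and 39 of these had a ratio above 0. Of the 30 lower in the inputs, 27 were tested and 26 had a ratio below 0, while over all 381 miRNAs tested in both 263 (69.0%) had the same sign. Of the 18 calls in the IP libraries, 7 were among the 47 and 6 among the 30, all 13 in the same direction, as were 17 of all 18. For the 154 miRNAs of at least 100 CPM in the inputs the 2 log2 ratios had a Pearson r of 0.76, across miRNAs, and for all 381 tested in both it was 0.56.

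miR-379-5p was at 2502, 2063 and 2586 CPM in WT IP and 5306, 4301 and 3388 CPM in KD3 IP (log2 ratio 0.86 ± 0.19 (SE), adjusted p = 0.0180). miR-143-3p was at 9520.5, 10639.8 and 10306 CPM in WT IP and 18529, 16395 and 11950.3 CPM in KD3 IP (log2 ratio 0.62 ± 0.18 (SE), adjusted p = 0.0427). miR-129-5p was at 97.9, 103 and 128 CPM in WT IP and 273, 343 and 208 CPM in KD3 IP (log2 ratio 1.32 ± 0.22 (SE), adjusted p = 0.00113). In all 3 the KD3 libraries lay above the WT libraries, and KD3 IP C was the nearest to them. Of the miR-379/miR-410 cluster 38 members were tested in the IP libraries, of which 33 were above 0, 6 were higher and 1, miR-409-3p, was lower (log2 ratio -0.62 ± 0.18 (SE), adjusted p = 0.0412). The 5 miRNAs whose IP ratio had the opposite sign were miR-1981-5p (input 0.75, IP -0.09), miR-22-5p (input 0.42, IP -0.28), miR-145a-5p (input 0.33, IP -0.02), miR-24-3p (input 0.27, IP -0.01) and miR-221-3p (input -0.37, IP 0.05). The difference between input and IP was not tested for any of them.

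**Figure D5:**
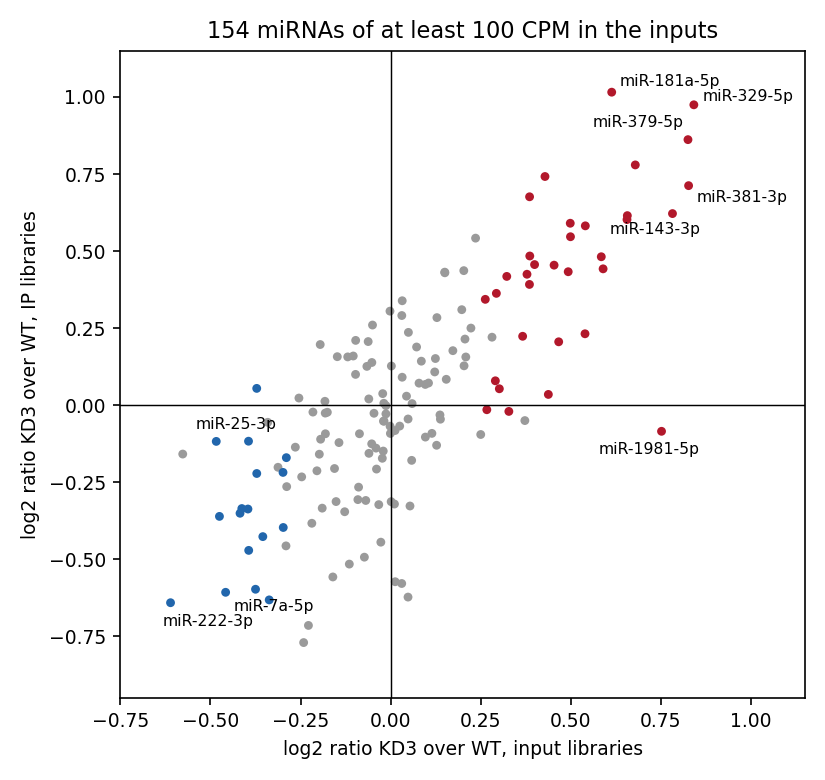
Each point is 1 of 154 miRNAs with at least 100 CPM in the inputs. Its log2 ratio of KD3 over WT in the input libraries is set against that in the IP libraries, which also depends on antibody capture. Red and blue points passed the test in the inputs as higher and lower, and most lie in the quadrants where both ratios share a sign, with miR-1981-5p as the red point farthest from them.

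The day 6 inputs show what the same miRNAs measured 3 days later, with the limit that KD6 input A held 241109 mapped reads against at least 6419408 in the other KD6 inputs. Levels in this comparison are scaled over the 9 input libraries. In their fit 45 of 533 miRNAs differed between KD6 and KD3 (8.44%), 25 higher and 20 lower at day 6. The replicate letter as a block gave 31, of which 30 were among the 45, and the balance turned to 14 higher and 17 lower. With library size alone 33 were higher and 11 lower, and with the mapped total 36 and 11. The number was 141 without KD6 input A. It fell to 16 without KD3 input A, to 22 without KD3 input B, to 14 without KD3 input C and to 27 without KD6 input C. This comparison shares the KD3 libraries with that of KD3 and WT, so its direction is not independent of the calls above. miR-379-5p was at 4498, 2504 and 2187 CPM in KD6 A, B and C, where KD3 held 4488, 4058 and 4989.8 CPM and WT 2666, 2407 and 2507 CPM. miR-143-3p was at 120196, 68794 and 65795 CPM in KD6, 106149, 97361 and 123972 CPM in KD3 and 65521, 60583 and 62830.2 CPM in WT. In both, the shallow library A was within or close to the KD3 range and B and C were near the WT range, and neither passed the test of KD6 against KD3 (adjusted p = 0.145 and 0.312).

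Of the 47 miRNAs higher at day 3, 8 differed between day 6 and day 3, 7 of them in the opposite direction, as did 34 of the 45 calls over all miRNAs. With the block 6 of the 8 passed, and miR-22-5p (adjusted p = 0.0669) and miR-99a-5p did not. miR-1981-5p was at 161, 215 and 217 CPM in KD6, below every KD3 and every WT library (log2 ratio of KD6 over KD3 -1.26, adjusted p = 0.00206). miR-299a-3p was at 231, 223 and 221.6 CPM in KD6, where WT held 400.1, 346 and 362.1 CPM and KD3 536, 519.7 and 567 CPM (log2 ratio of KD6 over KD3 -1.27, adjusted p = 7.29e-04). miR-99a-5p was at 4383, 4885 and 4228 CPM in KD6 (log2 ratio -0.52, adjusted p = 0.0330, and 0.0537 with the block). The ratios of these 3 were below 0, and the exception among the 8 was miR-143-5p, which was higher at day 6 than at day 3 (log2 ratio 0.71, adjusted p = 0.00997). Of the 30 miRNAs lower at day 3, 4 differed again, namely miR-194-5p, miR-32-3p and miR-669l-5p, which were higher at day 6, and miR-423-5p, which was lower still. With the block miR-32-3p did not pass (adjusted p = 0.0578). For the miR-379/miR-410 cluster the median log2 ratio was 0.29 for KD6 over WT and -0.21 for KD6 over KD3 across 54 tested members, of which miR-379-3p and miR-377-3p were higher and miR-299a-3p lower at day 6 than at day 3. The 2 higher ones did not pass with the block (adjusted p = 0.0704 for each). Between KD6 and WT, 7 of the 54 passed the test, and the share over all miRNAs was not counted for that comparison.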

How the data were processed

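Small RNA of NIH/3T3 cells was sequenced in 18 libraries, and the 6 input libraries of WT and of day 3 of Pus1 knockdown were compared. The deposited table holds estimated counts of reads per mature miRNA and locus, made by the authors with SeqImp (version not given in the sources used here) on mm10 with Ensembl 89 and miRBase 21 annotation. Reads that map to several loci were divided by the authors, so 47.0% of the nonzero values are not whole, and miRNAs of identical sequence, such as miR-199a-3p and miR-199b-3p, share their reads. The authors tested with DESeq2. The line with the mapped total of each library was taken out and used as its depth. Lines of the same mature miRNA were summed (78 names had several), and sums were rounded to whole numbers.

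edgeR 4.0.16 in R 4.3.3 fitted the quasi-likelihood model (TMM factors, filterByExpr) to the 6 libraries alone, with Benjamini-Hochberg adjustment over all miRNAs tested and calls at an adjusted p under 0.05. The 6 WT and KD3 IP libraries were fitted alone, the 9 input libraries were fitted together for day 6, and the ratio of hairpin arms was tested with library and arm as terms. Shares of reads were compared by the exact permutation test. Alternatives were relative log expression and upper-quartile factors, library size alone, the mapped total as library size, no filter, a mean of at least 10 counts, the line with the largest total in place of the sum, the replicate letter as a block, DESeq2 1.42.0, all 18 libraries in a single model, an adjusted p under 0.01, a test against 1.2-fold, and each library left out. Scripts were tested on simulated data. Replicate letters come from the labels. Deviations from the group means were compared between libraries over 209 miRNAs. For WT and KD3 inputs of the same letter the Pearson r was 0.62 (A), 0.17 (B) and 0.39 (C). Between WT and KD3 inputs of different letters it lay between -0.51 and 0.33. For KD3 and KD6 inputs of the same letter r was 0.22, 0.26 and 0.33 over 210 miRNAs. For the IP libraries it was 0.36, 0.02 and 0.10. No main fit used the letter, which entered only as a block among the alternatives.

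The members, lists and tests were chosen with earlier results of these data known. miRNAs were named when they passed the test at a mean of at least 100 CPM and were among the 10 largest changes or the 5 most abundant in either direction, or were among the 3 most abundant of all, or were among the 4 most abundant of a list. Naming list members in full was narrowed to those at an unadjusted p under 0.05 after values were seen, except for the list of the study. Hairpins up to 10000 bases apart were joined into clusters on GRCm38. Counting error is small for the abundant miRNAs at 8622901 to 15099781 mapped reads per library, and the number of libraries limits the precision.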

Additional observations from a re-analysis of the deposited data

How the results depend on the processing

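The count of 77 miRNAs between KD3 and WT inputs was 117 with the mapped total as library size, 40 at an adjusted p under 0.01, 23 against a 1.2-fold change and 0 in the model of all 18 libraries, and between 52 and 71 with 1 library left out. It was 85 with the replicate block, 75 with DESeq2, 81 with DESeq2 and the replicate block, 75 with relative log expression factors, 71 with upper-quartile factors and 88 with library size alone. The 18 calls in the IP libraries became 40 with the mapped total and 1 at an adjusted p under 0.01, against 1.2-fold or with all 18 libraries, and were between 4 and 23 with 1 library left out (24 with the replicate block). The 45 calls between day 6 and day 3 became 84 with no filter, 24 with all 18 libraries, 14 at an adjusted p under 0.01 and 26 against 1.2-fold, and were between 14 and 141 with 1 library left out (31 with the replicate block). For the arm ratios, the count of 0 became 2 with no filter, 1 with the replicate block and 2 without WT input C, and lay between 0 and 2 over all libraries left out. The share of reads outside miRNAs, 4.06 percentage points higher in KD3 (between 3.93 and 4.20 with 1 library left out), was -0.70 by distinct sequences.

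The log2 ratio of let-7i-5p, 0.04 under TMM, was -0.0499 with upper-quartile factors, -0.0649 with library size alone, -0.13 with the mapped total, -0.0935 with all 18 libraries, -0.00126 without KD3 input A and -0.0194 without WT input C. That of miR-21a-5p, 0.11 under TMM, was -0.00455 with library size alone, -0.068 with the mapped total and -0.0364 with all 18 libraries. No named miRNA that passed the test changed direction under any alternative run, and all of them lost their call in the model of all 18 libraries. The causes were not tested, beyond the tighter thresholds and smaller sets that some alternatives have by construction. Low levels limit the data under 100 CPM, where 27 of the 77 calls lie.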

Other observations

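The large miRNA cluster of an intron of Sfmbt2 on chromosome 2, whose rodent-specific hairpins are known from trophoblast and embryonic stem cells, had 24 tested members, of which 13 had a log2 ratio of KD3 input over WT input above 0 and 11 below. The median was 0.07, 0 were higher and 1 was lower, beside 8.87% and 5.66% over all tested miRNAs. These hairpins are near-identical in sequence, and the deposited counts divide reads between them.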
